A study of Mus musculus with 26 samples.

Results

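The comparison was between ERR beta-knockout mouse embryonic stem cells (ESCs) carrying a form of ERR beta deficient in TFIIH binding (DBDm6) and the same kind of knockout cells carrying wild-type ERR beta. It took the 4 libraries labelled KO/ERRb-DBDm6 (clones 10-24 and 10-26) and the 4 labelled KO/ERRb-wt (clones 8-3 and 8-4), which is 8 of the 26 total RNA libraries of the series. All 4 clones had the genotype ERR beta -/-, and in all of them the construct was doxycycline-inducible. They were seeded at 1600 cells per well on poly-L-ornithine and laminin and kept for 3 days with 2 µg/ml doxycycline in N2B27 medium with PD and CH. The labels disagree on whether LIF was also present. For reference, the report also uses a wild-type group without a construct (WT/Mock), a knockout group without one (KO/Mock), a knockout group with a mutant deficient in DNA binding (KO/ERRb-DBDm3) and one with a mutant deficient in coactivator binding (KO/ERRb-AF2M6), each with 2 clones. Each clone of these groups had 2 libraries, and the 2 were summed, so n = 2 clones per group throughout. A p-value here measures only spread between clones, estimated over all 14 clones of the 7 groups of the series. The remaining group is knockout cells with wild-type ERR gamma (KO/ERRg-wt), with 2 clones of 1 library each. A property that both clones of a group share cannot be told apart from its construct.

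ERR beta (Esrrb) is an orphan nuclear receptor that binds DNA as a monomer at an extended half-site and is part of the transcription factor network of naive ESCs. TFIIH is a general transcription factor: its core opens promoter DNA and works in nucleotide excision repair, and its kinase module phosphorylates RNA polymerase II as transcription starts. PD and CH are the usual short names of an inhibitor of the kinase MEK and an inhibitor of the kinase GSK3, which together with LIF hold ESCs in the naive state.

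Esrrb (chr12:86361117-86521628, plus strand, mm10) was read in all 8 libraries, and the gene count does not separate the transcript of the construct from that of the endogenous locus. In CPM (the reads of a gene over all assigned reads of its library, in parts per megaread and with TMM scaling), the wild-type libraries had 429 and 430 (clone 8-3) and 409 and 411 (clone 8-4). The DBDm6 libraries had 490 and 530 (clone 10-24) and 519 and 583 (clone 10-26). All 4 DBDm6 libraries lay above all 4 wild-type libraries. The mean was 530 ± 29.2 CPM (SD, n = 2) with DBDm6 and 420 ± 13.5 CPM with the wild-type form, a log2 difference of 0.34 ± 0.0736 (SE) with an adjusted p of 0.00408 in edgeR's quasi-likelihood test, Benjamini-Hochberg adjusted over all tested genes. WT/Mock had 581 CPM and KO/Mock 277 CPM, so the knockout allele still gave reads over this gene. Esrrg, the related receptor ERR gamma, stayed at or below 0.395 CPM in each of the 8 libraries, and Esrra (ERR alpha) had 27.4 ± 0.732 CPM with the wild-type form and 27.5 ± 1.78 CPM with DBDm6 (adjusted p = 0.987).

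The 8 libraries held 22385740 to 26035878 counts over all genes, and 15238 of 24421 genes passed the filter on low counts. The 2 libraries of a clone were not copies of each other: their counts differed by a mean chi-square per degree of freedom of 2.39 and 3.61 in the wild-type clones, and of 13.5 and 18.1 in the DBDm6 clones. In the other groups with 2 libraries per clone it ran from 2.98 (KO/Mock clone 12-1) to 14.4 (DBDm3 clone 9-6), with 11.7 in AF2M6 clone 32-25. Markers of undifferentiated ESCs were high in all 4 clones: Pou5f1, Sox2, Utf1, Dppa5a, Tdgf1 and Zfp42 summed to 2400 and 2280 CPM in the wild-type clones and to 2370 and 2580 CPM in the DBDm6 clones. Pou5f1 and Dppa5a made up most of this sum. Of the 6, Sox2 was called higher with DBDm6, and Utf1 and Zfp42, the latter on chromosome 8, were called lower. Of the 6 fibroblast feeder markers, Lox was at 0, and Col1a1, Col1a2 and Col3a1 were below 1 CPM in all 4 clones. Thy1, which other cell types also express, rose from 0.963 and 0.569 CPM to 3.94 and 5.17 CPM, and Vim, which made up nearly all of the sum of the 6, had 138 and 184 CPM against 216 and 182 CPM and did not pass the test (adjusted p = 0.264).

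Chromosomes 6 and 8 stood apart from the rest of the genome. On chromosome 6, the median log2 difference was -0.96, and 535 of 736 tested genes were lower with DBDm6 against 24 that were higher. On chromosome 8, the median was -0.53, and 488 of 795 tested genes were lower against 40 higher. The medians of the other 18 chromosomes lay between -0.02 and 0.11. Over all tested genes, 3041 were lower, which is 20% of them, and 2909 were higher, which is 19.1%.

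**Figure D1:**
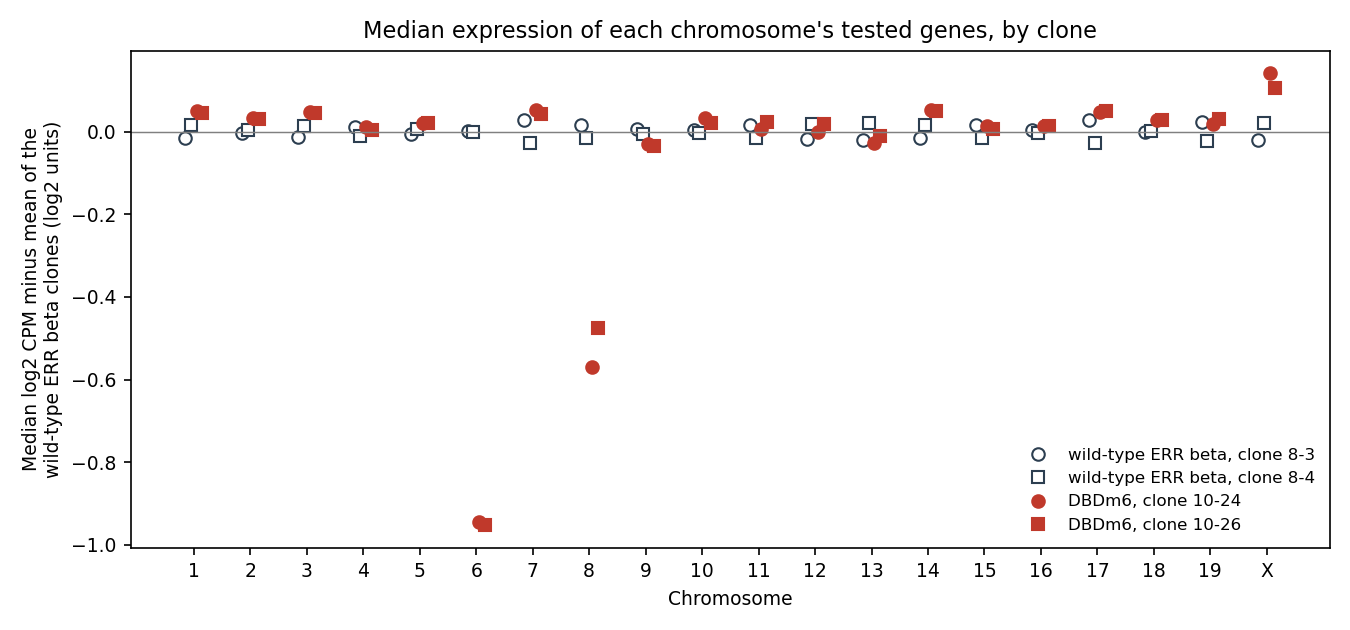
Median log2 difference in CPM from the mean of the KO/ERRb-wt clones (vertical axis) over the tested genes of each chromosome (horizontal axis), with 1 point per clone: open for the KO/ERRb-wt clones, filled for the DBDm6 clones. The DBDm6 clones lie near -0.94 and -0.95 on chromosome 6 and near -0.57 and -0.47 on chromosome 8, apart from both wild-type clones.

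The difference ran along the whole of both chromosomes. In windows of 25 neighbouring tested genes, the median log2 difference lay between -1.28 and -0.63 along chromosome 6 and between -0.77 and -0.31 along chromosome 8. On chromosome 6 the median against the wild-type clones was -0.94 in clone 10-24 and -0.95 in clone 10-26, and on chromosome 8 it was -0.57 and -0.47. The 2 KO/ERRb-AF2M6 clones were each at -0.96 on chromosome 6, and the KO/ERRb-DBDm3 clones were at -0.41 and -0.95. On chromosome 8 the AF2M6 clones were at -0.57 and -0.56, and the DBDm3 clones at -0.53 and -0.55. The 2 KO/ERRg-wt clones, which carry no mutant, were at -0.36 and -0.38 on chromosome 6. On chromosome 8 they were at -0.55 and -0.56. The lowest of the 4 mock clones was at -0.03 on chromosome 6 and at -0.02 on chromosome 8. Construct and chromosome level cannot be told apart in these groups, and the log2 differences of their genes below are as fitted, to be read against medians of -0.96 and -0.53. Where a value against the chromosome is given, each clone's chromosomes 6 and 8 were set to the level of WT/Mock by an offset.

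Some genes of chromosome 6 lay far from its median. Ccdc136 (chr6:29398926-29426995), a gene of coiled-coil type, had 17.4, 18.9, 13.9 and 15 CPM in the wild-type libraries and 78.0, 78.3, 78.4 and 75.5 CPM in the DBDm6 libraries. The 2 sets did not overlap, and the difference was 2.25 ± 0.128 on the log2 scale (adjusted p = 3.21e-06). Slc4a5, a bicarbonate transporter, rose from 25.4 ± 0.404 to 82.7 ± 14.9 CPM (log2 difference 1.70 ± 0.209), and Pdzrn3, a ubiquitin ligase, by 2.57 ± 0.311 on the log2 scale. At the other end, Ccnd2 (chr6:127125709-127151048), which encodes the cell cycle protein cyclin D2, had 8.49, 6.80, 9.19 and 9.31 CPM in the wild-type libraries and 0.557, 0.300, 0.751 and 0.244 CPM in the DBDm6 libraries. No DBDm6 library came near a wild-type one, and the log2 difference of Ccnd2 was -4.17 ± 0.289 (adjusted p = 8.3e-06). The ephrin receptor gene Epha1 went from 54.4 ± 1.71 to 5.81 ± 0.883 CPM (log2 difference -3.23 ± 0.432), and Antxr1 and Fam19a4 were lower by -3.37 ± 0.309 and -3.07 ± 0.481. With the chromosome offset, Ccdc136 was at 3.21, Slc4a5 at 2.66 and Pdzrn3 at 3.53, and Ccnd2 was at -3.22, Epha1 at -2.27, Antxr1 at -2.41 and Fam19a4 at -2.11, all still called.

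On chromosome 8, Tex15, a gene of meiosis and transposon silencing in the germ line, had 18.9, 19.8, 24.8 and 26.7 CPM with the wild-type form and 88.9, 81.2, 102 and 91.8 CPM with DBDm6. All DBDm6 libraries were above all wild-type ones, with a log2 difference of 2.01 ± 0.257 (adjusted p = 0.000178) on a chromosome whose median was -0.53. The lowest were the zinc finger gene Zfp423 (log2 difference -2.46 ± 0.25), the collagen IV gene Col4a2 (-2.0 ± 0.289), the pattern receptor gene Nod2 (-2.04 ± 0.29) and Snx20 (-2.07 ± 0.435). Col4a2's neighbour Col4a1 fell with it, from 27.2 CPM to 7.16 CPM (log2 difference -1.92 ± 0.203). With the offset, Tex15 was at 2.51, Zfp423 at -1.97, Col4a2 at -1.5, Nod2 at -1.54, Snx20 at -1.58 and Col4a1 at -1.43, all still called.

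Off chromosomes 6 and 8, 2845 of 13707 tested genes (20.8%) were higher with DBDm6 and 2018 (14.7%) were lower, at an adjusted p below 0.05 in edgeR's quasi-likelihood test. Of these, 802 were at least 2-fold higher and 633 at least 2-fold lower. The median log2 difference of all 13707 was 0.02. The excess of higher genes depended on the scaling. With chromosomes 6 and 8 removed before scaling, 2431 genes were higher and 2335 lower. Both DBDm6 clones lay above both wild-type clones in 5288 genes and below both in 4530, and in 3889 the clones overlapped. Leaving out 1 of the 4 clones gave 1836 to 2162 genes higher and 1124 to 1417 lower.

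**Figure D2:**
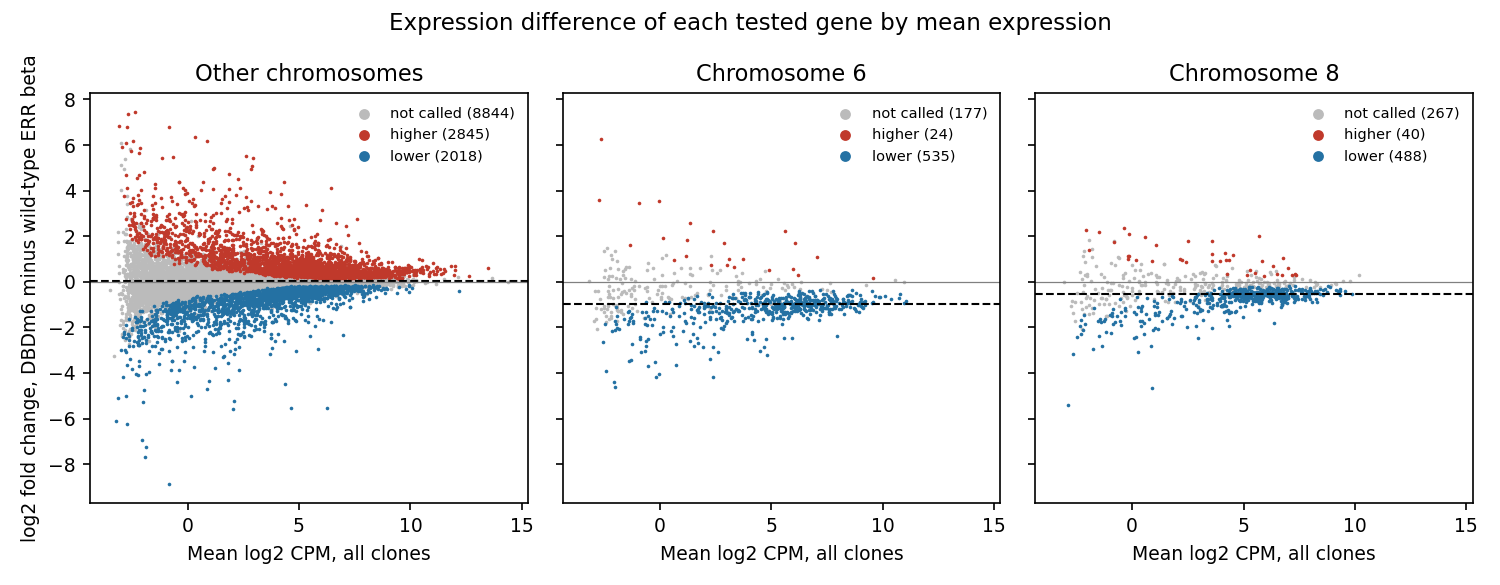
Log2 difference, DBDm6 minus wild-type form (vertical axis), against mean log2 CPM over all clones (horizontal axis) for tested genes, with those of chromosomes 6 and 8 drawn apart from the other chromosomes; red and blue points passed the test, with their number in the legend, and dashed lines are medians. Genes of chromosome 6 centre near -0.96 and those of chromosome 8 near -0.53, and the others near 0.02.

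The genes that rose most were low or nearly silent with the wild-type form. Mobp (chr9:120149742-120176091), known from myelin, had 0.123, 0.157, 0.264 and 0.486 CPM in the wild-type libraries and 10.9, 14.6, 8.70 and 13.3 CPM in the DBDm6 libraries, a log2 difference of 5.51 ± 0.692 (adjusted p = 0.00016; 6.37 without clone 8-4). Trpm1 (chr7:64153835-64269759), a cation channel gene best known from melanocytes and retina, was the highest in level of this set: 10.9, 12.2, 9.28 and 9.19 CPM against 143, 158, 195 and 218 CPM. Its log2 difference was 4.10 ± 0.338 (adjusted p = 1.81e-05), and the 4 DBDm6 libraries were all far above the wild-type ones. Lama3, a laminin chain of epithelial basement membranes, had 1.80, 2.95, 2.55 and 3.00 CPM against 63.2, 48.4, 54.4 and 47.8 CPM (4.37 ± 0.299, adjusted p = 8.3e-06).

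Fgfr2 (chr7:130162451-130266808), which encodes a receptor for fibroblast growth factors, was among the 12 that rose most. The wild-type libraries had 0.820, 0.943, 1.19 and 2.06 CPM, and the DBDm6 libraries had 20.3, 25.6, 16 and 16.3 CPM. Even the highest wild-type library was well below the lowest DBDm6 one, with a log2 difference of 3.95 ± 0.459 (adjusted p = 0.000102). Olig2, a transcription factor gene of oligodendrocyte and motor neuron precursors, rose from 0.363 ± 0.202 to 8.18 ± 0.303 CPM (4.49 ± 0.756; 5.19 without clone 8-4). The other 7 were Zfp951, Ptprtos, Pdlim4, Xlr3a, the alcohol dehydrogenase gene Adh1, the keratin gene Krt7 and Kctd12b, with log2 differences from 4.06 (Kctd12b) to 5.41 (Zfp951). Without clone 8-3, Adh1 was at 5.748 and Krt7 at 4.76. Xlr3a belongs to a family of near-identical copies, and since reads with several matches were not counted, its level is uncertain.

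The genes that fell most included genes of FGF-MAPK and BMP signalling. Etv4 (chr11:101769742-101785310), an ETS transcription factor gene that FGF signalling through ERK switches on, had 168, 147, 178 and 163 CPM in the wild-type libraries. The DBDm6 libraries had 6.64, 3.77, 2.53 and 1.02 CPM. The groups were far apart, and the log2 difference was -5.56 ± 1.13 (adjusted p = 0.00443). It was -6.515 without clone 10-24 and -4.97 without clone 10-26 (adjusted p = 0.0266 and 0.0478). Spry4, a feedback inhibitor of the same pathway, had 43.5, 34.5, 47.9 and 66.7 CPM against 1.58, 0.900, 1.42 and 0.284 CPM (-5.52 ± 1.04, adjusted p = 0.00238).

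Id3 (chr4:136143822-136145392) encodes an inhibitor of basic helix-loop-helix factors and is a direct target of BMP signalling. It had 42.9, 35.4, 49.8 and 59.0 CPM with the wild-type form and 3.08, 1.97, 2.06 and 1.14 CPM with DBDm6, so that its log2 difference was -4.51 ± 0.505 (adjusted p = 8.48e-05). Bmp4 (chr14:46383520-46390599), the ligand, had 28.2, 24.4, 28.4 and 35.6 CPM against 4.45, 2.06, 4.27 and 1.99 CPM (-3.19 ± 0.245, adjusted p = 1.28e-05). For both genes every DBDm6 library was below every wild-type library. The others of the 12 lowest were the calcium store gene Casq2 (log2 difference -5.59 ± 0.775), the prostaglandin and lipoxygenase enzyme genes Ptgs1 (-5.24 ± 0.632) and Alox15 (-4.29 ± 0.645), Nnat, Prph, Khdc3, Htr5a and Pcdh1, the last 5 between -3.85 (Nnat) and -3.28 (Pcdh1).

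**Figure D3:**
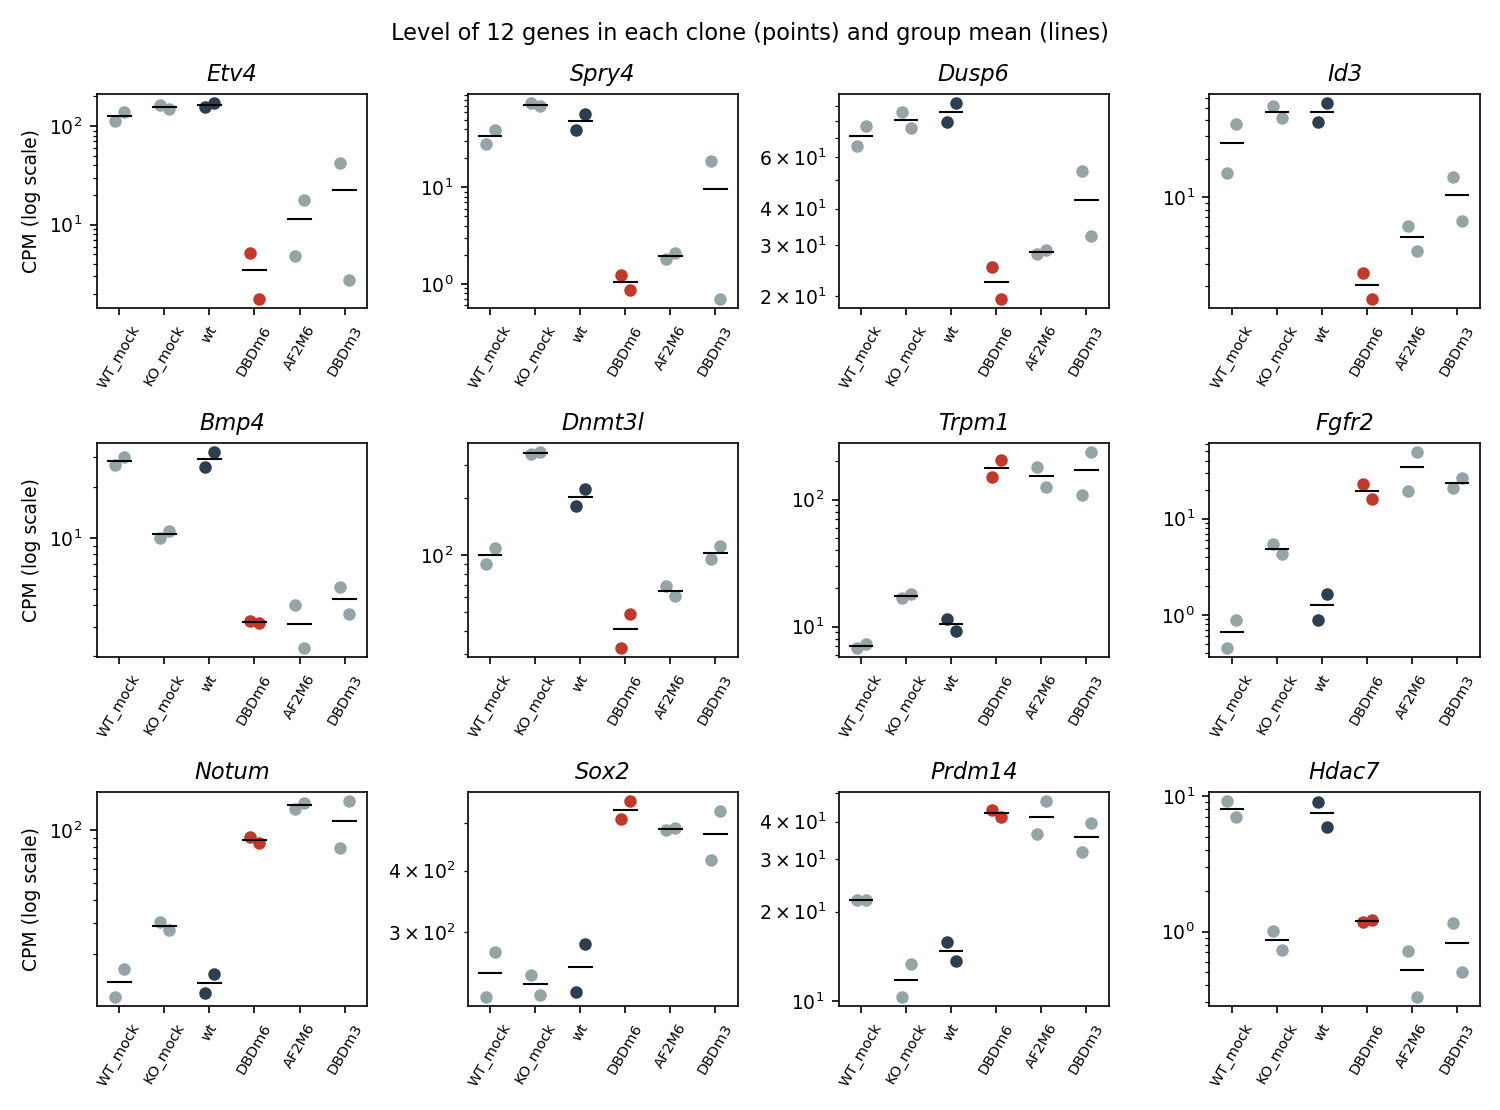
CPM (vertical axis, log scale, with its own range per panel) in each clone (points) and group mean (lines) of the groups on the horizontal axis for 12 genes, 1 panel per gene; red points are DBDm6 and dark points KO/ERRb-wt. Etv4, Spry4, Id3 and Bmp4 are lower and Fgfr2 and Trpm1 higher in both DBDm6 clones than in both KO/ERRb-wt clones.

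List counts here and below are to be read against 20.8% higher and 14.7% lower among all tested genes off chromosomes 6 and 8. Of 12 tested FGF-MAPK target genes off chromosomes 6 and 8, 6 were lower (50%), 1 was higher (8.33%) and 5 were not called. Their median log2 difference was -1.04, against 0.02 for all genes, and leaving out single clones gave 5 to 7 lower. Besides Etv4 and Spry4, the ERK phosphatase gene Dusp6 (chr10:99263231-99267489) went from 82.8, 76.0, 82.7 and 101 CPM to 24.3, 26.0, 18.5 and 20.7 CPM, without overlap. Its log2 difference was -1.94 ± 0.205 (adjusted p = 6e-05). Spred1, another inhibitor of the pathway, fell from 141 ± 15.6 to 62.0 ± 4.6 CPM, and Myc from 5.72 ± 1.59 to 1.38 ± 0.343 CPM. Etv5, the close relative of Etv4, was the 1 that rose: 355, 333, 324 and 341 CPM against 542, 546, 500 and 474 CPM (log2 difference 0.61 ± 0.0869, adjusted p = 0.000304). Spry2 (50.6 ± 5.83 and 47.1 ± 1.17 CPM) did not pass the test (adjusted p = 0.562), nor did Fos (0.864 and 0.486 CPM, adjusted p = 0.1). Egr1, at 0.485 and 0.153 CPM, passed in the fit of all clones (adjusted p = 0.0149) but not without clone 8-4 or without clone 10-24, where its adjusted p reached 0.119.

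Of 11 BMP targets and ligands off these chromosomes, 4 were lower (36.4%), 1 was higher (9.09%) and 6 were not called, with a median of -0.03. Id1 fell from 3.68 CPM to 0.866 CPM (log2 difference -2.08 ± 0.316), in the same direction as Id3. Id4, another member of the Id family, rose from 8.4, 7.47, 7.74 and 8.02 CPM to 18.8, 21.4, 17.6 and 21.6 CPM (1.33 ± 0.158, adjusted p = 0.00011). Id2 had 1.12 ± 0.266 and 1.20 ± 0.0607 CPM (adjusted p = 0.819), and the inhibitory Smad gene Smad7 had 53.3 ± 0.704 and 54.3 ± 0.0377 CPM (adjusted p = 0.869). Within the Id family, a pair fell and a single gene rose.

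Of 13 Wnt targets, 3 were higher (23.1%) and 4 lower (30.8%). Only 1 was lower without clone 10-26, 2 were lower without 8-4 or without 10-24, and 1 was higher without 10-24. Notum, which encodes a secreted enzyme that inactivates Wnt proteins, had 12.6, 11.4, 16.6 and 14.1 CPM with the wild-type form and 96.5, 86.9, 100 and 69.0 CPM with DBDm6. Its libraries did not overlap, and its log2 difference was 2.69 ± 0.261 (adjusted p = 3.74e-05). Axin2, the most widely used readout of the pathway, had 127 ± 2.83 and 125 ± 4.4 CPM (adjusted p = 0.941). Of 12 LIF-STAT3 genes, 4 were higher and 4 lower (2 lower without 8-3, 10-24 or 10-26). Of the genes of the LIF receptor, Il6st (gp130) rose from 84.4, 86.8, 92.8 and 95.2 CPM to 164, 171, 163 and 158 CPM (log2 difference 0.87 ± 0.0864), while Lifr was lower, with a log2 difference of -0.47 ± 0.0727.

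**Figure D4:**
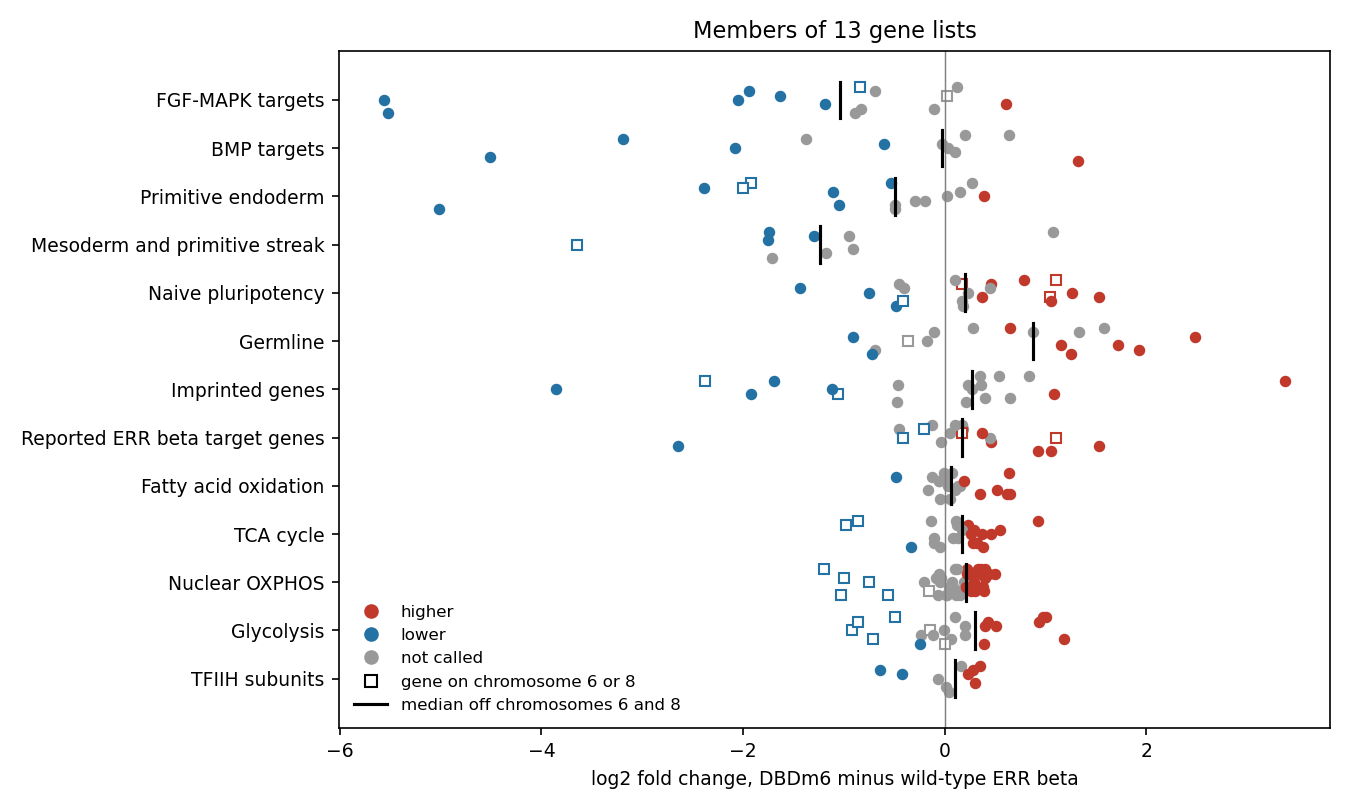
Log2 difference, DBDm6 minus wild-type form (horizontal axis), for tested genes of each list (vertical axis); filled points are genes off chromosomes 6 and 8, open squares are genes on them, and the bar is the median of the filled points. The FGF-MAPK median is -1.04 and that of the nuclear OXPHOS genes is 0.21, against 0.02 for all genes.

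Among 16 naive pluripotency genes off chromosomes 6 and 8, 6 were higher, 3 lower and 7 not called (median 0.20); 1 was lower without clone 8-4 or 10-24. Sox2 (chr3:34650005-34652460) had 226, 228, 267 and 300 CPM with the wild-type form and 447, 571, 494 and 613 CPM with DBDm6, with no overlap (log2 difference 1.05 ± 0.135, adjusted p = 0.000179). Prdm14, which represses DNA methylation genes and FGF signalling in ESCs, rose from 15.4, 16.3, 13.5 and 13.8 CPM to 40.6, 46.9, 35.1 and 48.1 CPM (1.53 ± 0.154, adjusted p = 4.08e-05). Mybl2 rose by 0.78 ± 0.0933, Jam2 by 1.26 ± 0.209 and Tfcp2l1 by 0.37 ± 0.0711. Gbx2, at 7.81 CPM and 2.88 CPM, fell by 1.44 on the log2 scale. Klf4 (92.2 ± 9.71 and 104 ± 10.8 CPM) and Tbx3 (50.1 ± 1.44 and 53.7 ± 16.3 CPM) did not pass the test, with adjusted p of 0.389 and 0.788. Klf2, on chromosome 8, rose from 80.5 to 166 CPM (1.05 ± 0.184) against the fall of its chromosome. Nanog and Dppa3, on chromosome 6, were also called higher. Nanog had 742 and 678 CPM in the wild-type clones and 784 and 816 CPM in the DBDm6 clones. Dppa3 had 86.3 and 77.9 CPM against 202 and 151 CPM. Zfp42, on chromosome 8, was called lower, but with the chromosome offset it was at 0.0863 and not called (adjusted p = 0.49).

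Of 15 general pluripotency genes, 3 rose and 3 fell (1 fell without 8-4, 10-24 or 10-26). Pou5f1, which encodes Oct4, had 839 and 784 CPM in the wild-type clones and 785 and 794 CPM in the DBDm6 clones (adjusted p = 0.69). Utf1, a chromatin factor gene, fell from 83.2, 79.4, 82.8 and 78.5 CPM to 26.6, 31.6, 29.1 and 28.2 CPM (log2 difference -1.48 ± 0.125, adjusted p = 1.77e-05). In the general pluripotency list both counts were 20%, near the shares among all genes. Of 15 genes of the formative and primed states, 3 rose (20%) and 5 fell (33.3%). Otx2 rose from 4.84 and 3.58 CPM to 17.6 and 18.8 CPM (2.11 ± 0.559, adjusted p = 0.0119), a call that was lost without clone 8-4, with an adjusted p of 0.0833. Sox11 fell by 1.51 and Sall2 by 1.06 on the log2 scale, and Fgf5 was near 0.433 and 0.735 CPM (adjusted p = 0.456).

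Of 13 genes of the primitive endoderm, the extraembryonic lineage that ESC cultures can give rise to, 5 were lower (38.5%) and 1 higher (7.69%). The count of lower genes was 3 without clone 8-3, 2 without 8-4 or 10-26, and 1 without 10-24. Sox7 had 2.66, 2.24, 2.02 and 2.83 CPM with the wild-type form and 0.171, 0.129, 0 and 0 CPM with DBDm6 (log2 difference -5.02 ± 0.72, -4.003 without clone 10-26, and -9.79 without clone 10-24). The last value sets the wild-type form against clone 10-26 alone, whose libraries were both at 0, so its size depends on the prior count. The laminin gene Lama1 had 89.8 and 61.9 CPM in the wild-type clones and 13.7 and 15.2 CPM in the DBDm6 clones (-2.39 ± 0.56, adjusted p = 0.0072), and its adjusted p reached 0.0601 with 1 clone left out (lost without clone 10-24 and without clone 10-26). Lamc1, another laminin chain, rose by 0.39 ± 0.06. The summed level of the defining primitive endoderm markers Gata4, Gata6, Sox17, Sox7, Foxa2 and Pdgfra was 6.04 and 5.56 CPM in the wild-type clones and 1.52 and 2.42 CPM in the DBDm6 clones. Gata4 and Sox7 made up most of this sum in the wild-type clones. The other 4 markers were each below 1 CPM and not called, and Gata4 (2.81 and 2.07 CPM against 0.600 and 1.74 CPM, adjusted p = 0.0431) lost its call without clone 8-3, 8-4 or 10-24 and with only the 4 clones fitted. In bulk RNA, fewer cells of a type and less RNA per cell cannot be told apart.

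Of 8 mesoderm and primitive streak genes, 3 were lower and 5 not called, with a median of -1.24, and 1 was lower without clone 10-24. Eomes had 10.0, 8.45, 9.85 and 10.6 CPM against 3.25, 2.61, 2.65 and 3.05 CPM (log2 difference -1.75 ± 0.204, adjusted p = 9.54e-05). Cdx1 fell from 18.3 CPM to 5.46 CPM (adjusted p = 0.00971, and 0.0664 at the most with 1 clone left out, lost without 10-24 and without 10-26). T (brachyury) had 51.2 and 34.5 CPM in the wild-type clones and 16.1 and 10.0 CPM in the DBDm6 clones, which did not pass the test (adjusted p = 0.103), though it passed in a fit of the 4 clones alone (adjusted p = 0.00886). The summed level of T, Mixl1, Mesp1 and Gsc was 52.0 and 35.3 CPM against 16.5 and 10.5 CPM. Nearly all of it was T: the other 3 were each below 1 CPM, and none of the 4 was called. The part of such cells in the results above was not tested.

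Of 15 germline genes, 6 were higher and 2 lower, with a median of 0.88 (1 lower without 8-3 or 10-24). Dmrt1 (chr19:25505706-25604328), a germ cell and sex determination factor gene, had 2.17, 3.07, 2.77 and 3.40 CPM with the wild-type form and 13.4, 18.6, 14.5 and 17.7 CPM with DBDm6 (log2 difference 2.48 ± 0.246, adjusted p = 3.83e-05). Sycp3, a part of the meiotic synaptonemal complex, had 7.54, 10.3, 7.43 and 8.06 CPM against 24.8, 30.2, 32.8 and 39.6 CPM (1.93 ± 0.192). Both genes were higher in every DBDm6 library. Piwil2, a piRNA pathway gene, fell by 0.72 on the log2 scale. Among cleavage-stage genes, Zscan4c had 0 counts in the wild-type clones and 46 counts, or 0.48 CPM, with DBDm6, which is at least 15.6-fold higher against a floor of 3 counts over the group. With 0 counts there, Zscan4c could pass the filter on low counts only through other groups. Its direction was thus largely fixed by the filter. Its family has near-identical copies, and reads with several matches were not counted. Zscan4d, of the same family, lost its call without 8-3 or without 8-4, with an adjusted p of up to 0.0785.

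Dnmt3l, which encodes the cofactor of the de novo DNA methyltransferases, had 189, 174, 236 and 212 CPM with the wild-type form and 40.1, 25.0, 56.2 and 41.2 CPM with DBDm6. All 4 DBDm6 libraries were below all wild-type ones, with a log2 difference of -2.31 ± 0.198 (adjusted p = 2.21e-05). In the mock groups Dnmt3l was at 99.7 CPM in WT/Mock and 346 CPM in KO/Mock. Tet1, a methylcytosine oxidase gene, rose by 0.25 ± 0.0581. Of 17 imprinted genes off chromosomes 6 and 8, 2 were higher (11.8%) and 4 lower (23.5%). Grb10, an adaptor of growth factor receptors, had 5.66, 6.68, 6.73 and 8.74 CPM against 101, 86.2, 52.4 and 49.1 CPM, higher in all DBDm6 libraries and more so in clone 10-24 (3.37 ± 0.697, adjusted p = 0.00396). Igf2r rose from 74.9, 78.8, 69.5 and 78.8 CPM to 150, 169, 151 and 173 CPM (1.09 ± 0.0761, adjusted p = 8.3e-06), Plagl1 fell from 27.4 to 8.46 CPM, and Nnat is given above.

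There were 14 genes known from the literature as ERR beta targets and lying off chromosomes 6 and 8. Of these, 5 were higher (35.7%), 1 was lower (7.14%) and 8 were not called (median 0.18). The 1 that fell was the histone deacetylase gene Hdac7 (chr15:97792664-97844502). It had 9.14, 9.04, 5.37 and 6.44 CPM in the wild-type libraries and 0.942, 1.41, 0.870 and 1.58 CPM in the DBDm6 libraries, with no overlap (log2 difference -2.64 ± 0.377, adjusted p = 0.00032). Its level was 8.08 CPM in WT/Mock, 0.868 CPM in KO/Mock, 0.829 CPM with DBDm3 and 0.524 CPM with AF2M6. WT/Mock and KO/ERRb-wt were thus above the other 4 of these groups.

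Cpt1b (chr15:89416405-89425862), the muscle-type carnitine palmitoyltransferase of fatty acid import into mitochondria, differed between the mock groups, at 16.1 CPM in WT/Mock and 2.7 CPM in KO/Mock (adjusted p = 0.000691). It had 13.6 and 7.59 CPM in the wild-type clones and 9.42 and 12.6 CPM in the DBDm6 clones, which overlapped (log2 difference 0.06 ± 0.334, adjusted p = 0.915). With DBDm3 it was at 4.14 CPM and with AF2M6 at 4.07 CPM, log2 differences of DBDm6 from them of 1.41 ± 0.35 (adjusted p = 0.0562) and 1.44 ± 0.349 (adjusted p = 0.23), neither of which passed the test. Its exons share 94.8% of their bases with those of the readthrough gene Chkb-Cpt1b, and such reads were counted for both. Acadl, a fatty acid dehydrogenase gene, was at 14.6 CPM in WT/Mock and 8.63 CPM in KO/Mock (adjusted p = 0.00453). It had 13.5 ± 2.03 CPM with the wild-type form and 12.4 ± 0.21 CPM with DBDm6 (adjusted p = 0.562), and 8.27 and 8.35 CPM with DBDm3 and AF2M6 (adjusted p of DBDm6 against each 0.075 and 0.246). Idh2, a mitochondrial isocitrate dehydrogenase gene, was at 148 CPM in WT/Mock and 79.8 CPM in KO/Mock, and rose from 136, 149, 118 and 110 CPM with the wild-type form to 206, 286, 194 and 289 CPM with DBDm6 (0.92 ± 0.127, adjusted p = 0.00026).

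Genes of energy metabolism were read against the 20.8% higher and 14.7% lower among all genes off chromosomes 6 and 8. Of 43 nuclear genes of oxidative phosphorylation off chromosomes 6 and 8, 21 were higher (48.8%) and 0 lower by edgeR's test, with a median of 0.21. At an unadjusted p below 0.05 none of them was lower either, and DESeq2 and limma-voom each called 21 higher and 0 lower. Leaving out single clones gave 13 (without 8-4) to 19 higher, and other scalings 18 to 21. Atp5b, the catalytic beta subunit of ATP synthase, had 2025, 2108, 2086 and 2100 CPM against 2593, 2657, 2678 and 2765 CPM (log2 difference 0.36 ± 0.0508, adjusted p = 0.000279). Ndufb9 of complex I rose by 0.43 ± 0.0534 and Uqcrc2 of complex III by 0.37 ± 0.0662. Of 21 genes of the TCA cycle, 10 were higher (47.6%) and 1 lower (4.76%), and 6 were higher without clone 8-4 or 10-26. The higher genes included Idh3b (0.55 ± 0.0676), Dld (0.46 ± 0.0818) and Sdhb (0.37 ± 0.0603). On chromosome 6, the complex I genes Ndufa4, Ndufa5 and Ndufa9 had log2 differences of -1.03, -1.20 and -0.75, and were called lower. With the chromosome offset the 3 went separate ways: Ndufa9 was higher, by 0.21 (adjusted p = 0.017), Ndufa5 was lower at -0.24 (adjusted p = 0.00649), and Ndufa4, at -0.0727, was not called (adjusted p = 0.435).

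Of 16 glycolysis genes off these chromosomes, 8 were higher and 1 lower (median 0.30). Aldoa, aldolase A, had 1152, 1202, 1018 and 981 CPM with the wild-type form and 1990, 2238, 2126 and 2204 CPM with DBDm6, without overlap (log2 difference 0.97 ± 0.0929, adjusted p = 3.1e-05). The phosphofructokinase gene Pfkm rose by 1.18 ± 0.177 and the hexokinase gene Hk1 by 1.00 ± 0.151. Gapdh, on chromosome 6, fell from 2164, 2142, 2086 and 1954 CPM to 1273, 1291, 1316 and 1209 CPM (-0.71 ± 0.0858), but was 0.25 higher with the chromosome offset (adjusted p = 0.0198). Of 20 fatty acid oxidation genes, 6 were higher and 1 lower, with 2 or 3 higher without 8-4, 10-24 or 10-26. The electron transfer flavoprotein gene Etfb rose by 0.64 ± 0.0766, the carnitine carrier gene Slc25a20 by 0.62 ± 0.102, and Etfdh, which passes the same electrons on, was lower by -0.49 ± 0.0813.

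Of the 10 subunit genes of TFIIH itself, all off chromosomes 6 and 8, 4 were higher, 2 lower and 4 not called (median 0.10); 2 were higher without clone 8-3 or 10-26. Gtf2h5, the smallest core subunit, had 46.2, 44.8, 45.2 and 42.5 CPM with the wild-type form and 30.3, 28.1, 29.9 and 26.3 CPM with DBDm6 (log2 difference -0.64 ± 0.0875, adjusted p = 0.000241). The helicase gene Ercc2 (XPD) was lower by -0.42 ± 0.0921. In this list the higher genes were 40% and the lower 20%. The genes of the kinase module were higher. Cdk7 had 88.0, 88.1, 90.0 and 97.2 CPM against 121, 106, 110 and 105 CPM (0.28 ± 0.0567, adjusted p = 0.00243), its cyclin gene Ccnh rose by 0.35 ± 0.071, and Mnat1 by 0.23 ± 0.0656. Mnat1 lost its call (adjusted p = 0.117 at the most) when clone 8-3, 8-4 or 10-26 was left out. Ercc3 (XPB), the helicase that opens promoters, did not pass the test (adjusted p = 0.413). Gtf2h5 was at 28.8 CPM with AF2M6 and 30.5 CPM with DBDm3, close to its level with DBDm6.

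Among 13 ATF4 stress response genes off these chromosomes, 4 were higher and 9 not called, with a median of 0.57 (3 to 4 higher with single clones left out, and 8 with only the 4 clones fitted). Ddit3 (CHOP) rose from 6.27, 7, 5.67 and 4.09 CPM to 12.7, 16.2, 11.7 and 22.1 CPM (1.44 ± 0.278), and Phgdh, the first enzyme of serine synthesis, by 0.75 ± 0.142. Of 15 p53 targets, 1 was higher and 2 lower (1 lower without 8-3, 8-4 or 10-24). The apoptosis gene Pmaip1 (Noxa) had 110, 106, 123 and 126 CPM with the wild-type form and 12.9, 14.8, 15.4 and 16.2 CPM with DBDm6 (log2 difference -2.97 ± 0.416, adjusted p = 0.000309). Of 11 nucleotide excision repair genes, 2 were higher and 2 lower (1 to 2 of each with single clones left out), and Ercc6 (CSB) was lower by -0.83 ± 0.108.

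The remaining lists, again off chromosomes 6 and 8, were as follows, to be read against the same 20.8% higher and 14.7% lower. Of 19 general transcription factor and elongation genes, 1 was higher and 3 lower. Of 14 ERR family members and cofactors, 2 were lower, the corepressor gene Nrip1 and the Mediator subunit gene Med1, whose adjusted p rose to 0.0999 and 0.111 with single clones left out. Of 18 cell cycle genes 5 were higher and 3 lower, of 10 trophoblast genes 2 and 4, of 5 neuroectoderm genes 2 and 2, and of 7 DNA methylation genes 1 and 2. Of 10 interferon genes 2 were higher and 3 lower, of 12 muscle-type genes 2 and 2, and of 4 fibroblast genes 1 and 1 (Thy1 and Col1a1). The call of Col1a1 rested on 17 counts with the wild-type form against 3 with DBDm6, and was lost with each of the 4 clones left out, with DESeq2, without the filter on low counts and with the chromosome offset. Of 9 glutamine genes 3 were higher and 6 not called. With single clones left out, the counts in these lists fell to as few as 1 higher and 1 lower for the cell cycle (without 8-4) and 1 lower for the trophoblast (without 8-3 or 10-24), and to 0 lower for the transcription factors (without 8-4 or 10-26) and the interferon genes (without 10-26). The 3 tested cleavage-stage genes, Zscan4c, Zscan4d and Usp17lb, were all higher, and limma-voom called 1 higher. With the wild-type form Zscan4c and Usp17lb had 0 counts and Zscan4d had 1. They could pass the filter on low counts only through other groups, so their direction was largely fixed by the filter. The count supports nothing by itself.

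On the X chromosome, a block from 7 to 8.5 Mb was counted apart. Of its 37 tested genes, 23 were higher with DBDm6 and 1 was lower, with a median log2 difference of 0.54. Of all 540 tested genes of the X chromosome, 164 were higher and 66 lower, with a median of 0.11. Off chromosomes 6 and 8, 20.8% were higher and 14.7% lower. In 31 of the 37, the mean of the KO/ERRb-wt clones was below those of both mock groups. The share of such genes elsewhere was not computed, so this count supports nothing by itself.

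Promoters that hold the ERR response element were then compared. RefSeq promoters of build GRCm38.p6 (mm10), from 250 bases before to 50 after the start, were matched by symbol to 11119 of the 15238 tested genes and searched on both strands for the extended half-site TCAAGGTCA. The element was in 0.466% of all 27025 genes of the promoter table and in 0.315% of the tested ones (35 of 11119). Off chromosomes 6 and 8 it was in 0.425% of the genes higher with DBDm6 (9 of 2116). It was in 0.39% of those not called (25 of 6403) and in 0 of 1510 of those lower. Of the 34 genes with the element off chromosomes 6 and 8, 9 were higher (26.5%) and 25 not called, against 21.1% higher and 15.1% lower among the 10029 tested genes with a promoter. By edgeR's test, 0 of the 34 were lower at the adjusted threshold and 4 at an unadjusted p below 0.05. The 9 were Gjb1, Myh7b, Tmem191c, Zfp414, Psap, Sgms1, Efemp2, Mtrf1l and Fancl. With single clones left out, the adjusted p rose to 0.0728 for Mtrf1l, 0.0606 for Tmem191c and 0.215 for Fancl. Promoters of a pair of genes that rose and a pair of mitochondrial genes that were not called are shown 5′ to 3′ on the gene's strand. Capitals mark the element, which in all 4 reads as its reverse complement.
Myh7b, chr2:155610993-155611292, plus strand: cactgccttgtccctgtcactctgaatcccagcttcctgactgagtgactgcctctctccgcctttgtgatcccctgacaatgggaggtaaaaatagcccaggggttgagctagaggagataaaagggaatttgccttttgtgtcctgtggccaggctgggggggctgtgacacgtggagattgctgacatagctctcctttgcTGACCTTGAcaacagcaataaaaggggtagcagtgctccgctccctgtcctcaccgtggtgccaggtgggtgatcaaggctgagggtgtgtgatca
Psap, chr10:60277378-60277677, plus strand: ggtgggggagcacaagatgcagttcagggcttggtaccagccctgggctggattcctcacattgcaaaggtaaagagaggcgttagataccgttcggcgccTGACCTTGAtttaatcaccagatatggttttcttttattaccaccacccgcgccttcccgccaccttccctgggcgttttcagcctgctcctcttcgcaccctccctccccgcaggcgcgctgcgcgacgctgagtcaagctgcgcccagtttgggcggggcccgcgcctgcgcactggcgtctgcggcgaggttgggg
Atp5g3, chr2:73911277-73911576, minus strand: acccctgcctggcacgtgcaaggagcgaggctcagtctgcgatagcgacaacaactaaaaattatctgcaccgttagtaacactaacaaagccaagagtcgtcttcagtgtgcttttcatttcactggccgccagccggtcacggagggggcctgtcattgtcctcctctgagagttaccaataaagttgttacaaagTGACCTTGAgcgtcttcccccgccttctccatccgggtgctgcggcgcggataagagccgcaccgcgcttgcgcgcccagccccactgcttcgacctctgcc
Sdhd, chr9:50603800-50604099, minus strand: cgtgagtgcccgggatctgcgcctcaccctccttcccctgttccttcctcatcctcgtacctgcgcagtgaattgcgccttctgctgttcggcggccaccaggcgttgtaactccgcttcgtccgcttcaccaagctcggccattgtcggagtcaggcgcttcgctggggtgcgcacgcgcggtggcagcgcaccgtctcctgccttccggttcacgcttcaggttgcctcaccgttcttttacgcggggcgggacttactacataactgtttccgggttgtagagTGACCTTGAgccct

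In the Myh7b promoter the element began 46 bases before the start. Myh7b, a myosin heavy chain gene, had 19.5 and 17 CPM in the wild-type clones and 51.8 and 53.7 CPM in the DBDm6 clones (log2 difference 1.53 ± 0.101, adjusted p = 6.6e-06), while WT/Mock and KO/Mock had 16.9 and 17.3 CPM. Psap, which encodes the lysosomal protein prosaposin, carries it 149 bases before the start. It had 178 and 133 CPM in the wild-type clones and 252 and 264 CPM in the DBDm6 clones (0.73 ± 0.149, adjusted p = 0.00286), with 238 CPM in WT/Mock and 123 CPM in KO/Mock. Atp5g3, an ATP synthase subunit gene with the element 52 bases before the start, had 192 and 193 CPM in the wild-type clones and 202 and 187 CPM in the DBDm6 clones (adjusted p = 0.87). Sdhd, a subunit of succinate dehydrogenase, has it 36 bases after the start and had 193 ± 4.87 and 179 ± 3.67 CPM (adjusted p = 0.245). A match of these letters is a description of the promoter and does not show binding.

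DBDm6 was then set against the coactivator-binding mutant. Of 13707 genes off chromosomes 6 and 8, 0 (0%) passed an adjusted p of 0.05 in edgeR's quasi-likelihood test of DBDm6 minus AF2M6, and 1933 had an unadjusted p below 0.05. DESeq2 called 159 genes and limma-voom on single libraries 8, and leaving out 1 clone gave 0 to 496 (496 without the AF2M6 clone 32-25). Over the 24 genes named above as highest and lowest off chromosomes 6 and 8, the log2 difference of DBDm6 minus AF2M6 lay between -1.76 (Khdc3) and 0.51 (Prph), with a median SE of 0.491. Etv4 was at 11.4 CPM, Spry4 at 1.96 CPM, Id3 at 4.88 CPM and Fgfr2 at 34.1 CPM with AF2M6. A p that misses the threshold does not show that the mutants act alike.

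Against the DNA-binding mutant, 408 genes (2.98%) were called off chromosomes 6 and 8, 238 of them higher and 170 lower with DBDm6. This count depended on single clones: it was 34 without clone 10-24, 15 without clone 10-26, 1812 without the DBDm3 clone 9-6 and 1150 without 9-8. Clone 9-6 also had the smaller fall of chromosome 6, and 41 genes of that chromosome were lower and 1 higher in DBDm6 than in DBDm3. Of the 24 genes, Xlr3a, Lama3 and Id3 passed this test. Lama3 was at 53.5 CPM with DBDm6 and 17 CPM with DBDm3 (adjusted p = 0.00955), and Id3 at 2.06 and 10.5 CPM. Ttc39c, at 12.4 and 3.00 CPM, and Serpina3m, at 9.74 and 2.57 CPM, were among the 4 highest, and Plekhg1, at 17.8 and 73.3 CPM, and Cd80, at 5.82 and 23.7 CPM, among the 4 lowest.

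The mock groups share no clone with the DBDm6 and wild-type groups. For all 12 of the highest genes, and for all 12 of the lowest, the level of KO/Mock on the scale of log2(CPM + 0.1) was nearer to that of the wild-type form than to that of DBDm6. The level of WT/Mock was nearer to the wild-type form for 10 of the highest (not Xlr3a and Krt7) and for all 12 of the lowest. The level of AF2M6 was nearer to DBDm6 for all 24, and that of DBDm3 for 11 of the highest and 9 of the lowest. The choice of the 24 fixes part of these counts, because genes nearly silent with the wild-type form passed the level of expression asked for through the groups where they are high, so the counts support nothing by themselves. Among all 2845 genes higher with DBDm6, AF2M6 was nearer to DBDm6 in 88.1%, DBDm3 in 74.2%, WT/Mock in 20.2% and KO/Mock in 14.8%. Among the 2018 lower genes these shares were 89%, 71.6%, 21.4% and 19.8%. These genes were called from the same DBDm6 and wild-type levels, so their choice also fixes part of these shares. The share over all tested genes was not computed, and the shares support nothing by themselves. Etv4 was at 126 CPM in WT/Mock, 154 CPM in KO/Mock and 164 CPM with the wild-type form. It was at 22.5, 11.4 and 3.49 CPM with DBDm3, AF2M6 and DBDm6.

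Between the mock groups, 2497 of the 13707 genes (18.2%) were higher and 2695 (19.7%) lower in KO/Mock. Of the genes lower with DBDm6, 437 were also lower in KO/Mock, which is 21.7% of the DBDm6 list and 16.2% of the KO/Mock list, and 388 were higher there (19.2% and 15.5%). Of the genes higher with DBDm6, 587 were also higher in KO/Mock (20.6% and 23.5%), and 585 were lower (20.6% and 21.7%). Both WT/Mock clones had a raised chromosome 14, with medians 0.558 and 0.579 above the wild-type form. With chromosome 14 left out as well, the shares of the list lower with DBDm6 were 20.02% lower and 19.7% higher in KO/Mock, and those of the list higher with DBDm6 were 21.3% higher and 18.9% lower. Among the 13707 genes off chromosomes 6 and 8, chromosome 14 included, 18.2% were higher and 19.7% lower in KO/Mock. For DBDm6 these were 20.8% and 14.7%. Without chromosome 14, 2484 of 13194 genes were higher and 2362 lower in KO/Mock. The shares that leave it out are to be read against these counts.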

How the data were processed

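Total RNA libraries (TruSeq stranded with Ribo-Zero, single-end reads of 100 bases, per the labels' protocols) were aligned with STAR 2.7.8a to mm10 and counted with featureCounts by the authors, per the submitters' processing notes, which give version 2.0.10, while the file header gives 2.0.1. Per the file headers, the deposited values are raw counts per gene on the reverse strand, with reads over several genes counted for each and reads with several matches left out. The 2 libraries of each clone were summed. edgeR 4.0.16 (R 4.3.3; filterByExpr, TMM, robust quasi-likelihood test, Benjamini-Hochberg adjustment over 15238 genes) was fitted to all 14 clones of 7 groups, with 7 residual degrees of freedom, and tested on simulated data. The comparison, its members, the gene lists and the rule for named genes were chosen with earlier results of these data known. Named genes off chromosomes 6 and 8 were the 12 farthest in each direction among called genes whose clones did not overlap and whose mean log2 CPM over all clones was 1 or more. On chromosomes 6 and 8 they were the 4 farthest above and below the chromosome's median, and in each list up to 4 members by p. Marker genes, the 9 promoter genes, Atp5g3 and Sdhd, and Acadl, Axin2, Cpt1b, Dppa3, Egr1, Ercc3, Esrra, Fgf5, Fos, Hk1, Id2, Klf2, Klf4, Lama1, Mnat1, Nanog, Ndufa4, Ndufa9, Otx2, Smad7, Spry2, Tbx3, Tfcp2l1 and Uqcrc2 fall outside this rule and were chosen after their values were seen. Motif matches used RefSeq promoters. Alternatives used DESeq2 1.42.0 and limma 3.58.1.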

Additional observations from a re-analysis of the deposited data

How the results depend on the processing

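Off chromosomes 6 and 8, the count of genes higher with DBDm6 was 2845 and that of genes lower 2018, and with single clones left out, where 1 arm holds a lone clone assumed to vary like the other groups, they were 1836 to 2162 and 1124 to 1417. The other settings kept both counts within 1.5 times, between 2431 higher (chromosomes 6 and 8 removed) and 3069 (only the 4 clones fitted), and every called gene they shared with the reported fit had the same direction. The excess of higher genes depended on the scaling. It was 2431 higher against 2335 lower with chromosomes 6 and 8 removed. Scaling from genes off chromosomes 6, 8 and 14 gave 2522 against 2400. The median log2 difference off chromosomes 6 and 8 was -0.021 and -0.018 in these 2 settings, against 0.022 in the reported fit. On chromosome 8 the count of higher genes was 23 to 32 with single clones left out. With an offset that sets each clone's chromosomes 6 and 8 to the level of WT/Mock, 142 genes of chromosome 6 were higher and 129 lower, and 154 and 132 of chromosome 8, with medians of -0.0041 and -0.0299 by construction. Gapdh (0.25) and Ndufa9 (0.21) were then called higher. Zfp42, at 0.0863, was then not called (adjusted p = 0.49 in edgeR's quasi-likelihood test). The chromosome 6 median was -0.95 with RLE scaling and with DESeq2, -0.91 without a filter on low counts, -1.003 with scaling from genes off chromosomes 6, 8 and 14, -0.97 with limma-voom and with only library 2 of each clone, and -0.97 to -0.95 with single clones left out. DBDm6 minus AF2M6 gave 159 genes with DESeq2, 1 without the filter, 8 with limma-voom and 0 to 496 with single clones left out, and DBDm6 minus DBDm3 gave 1115 with DESeq2, 947 with limma-voom and 15 to 1812 with single clones left out; the cause was not tested. With the library number as a replicate block, limma-voom gave 2875 higher and 2041 lower off chromosomes 6 and 8, 0 genes for DBDm6 minus AF2M6 and 915 for DBDm6 minus DBDm3; the numbers mark libraries of a clone and pair no clones across groups. Using only library 1 or only library 2 of each clone, an alternative chosen after seeing the data, gave 2583 or 2433 higher and 1831 or 1713 lower. Counts in some gene lists moved by over 1.5 times in settings other than a left-out clone. With only the 4 clones fitted, higher genes went from 4 to 8 (ATF4), 2 to 4 (excision repair, imprinted), 1 to 3 (p53), 1 to 2 (primitive endoderm), 1 to 0 (general transcription) and 0 to 1 (ERR family), and lower genes from 3 to 5 (mesoderm, naive pluripotency, general transcription), 1 to 2 (reported ERR beta targets), 1 to 0 (fibroblast) and 0 to 1 (glutamine). With limma-voom, with and without the block, higher genes went from 2 to 5 (imprinted), 0 to 3 (ERR family), 0 to 1 (mesoderm) and 3 to 1 (cleavage stage), and lower genes from 0 to 1 (glutamine), 1 to 0 (fibroblast) and, with the block, 5 to 3 (primitive endoderm). With DESeq2, higher genes went from 2 to 4 (excision repair) and 0 to 1 (mesoderm, ERR family, the last also with RLE scaling), and lower genes from 1 to 0 (fibroblast). Without the filter, higher genes went from 3 to 1 (formative and primed) and lower genes from 3 to 1 (naive pluripotency), 4 to 2 (trophoblast), 2 to 1 (DNA methylation, p53) and 1 to 0 (fibroblast). Lower general transcription genes went from 3 to 5 with chromosomes 6 and 8 removed or scaling off chromosomes 6, 8 and 14, and lower fatty acid oxidation genes from 1 to 2 with the latter. With only library 2, higher genes of TFIIH went from 4 to 1, of fatty acid oxidation from 6 to 3 and of the cleavage stage from 3 to 1, and with only library 1, lower genes went from 5 to 3 (primitive endoderm), 4 to 2 (Wnt, LIF-STAT3) and 3 to 0 (interferon); the other such moves with 1 library were of 1 or 2 genes. With 2 clones per group, small differences at low counts were not detectable.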
